A study of Mus musculus with 4 samples.

Results

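Claudins are the membrane proteins that form the strands of tight junctions between epithelial cells. The family described here holds 9 claudin genes of the mouse, Cldn1, Cldn2, Cldn3, Cldn4, Cldn6, Cldn7, Cldn10, Cldn12 and Cldn18, of 32288 features in the count table. They were chosen by name as the claudins of pancreas, stomach and embryonic epithelium, and all 9 were found in the table. Another 23 claudin genes were in the table and are counted at the end. Claudins of one cell pair with claudins of its neighbour, and the mix sets what passes between the cells. Some act mainly as seals, while others form pores for cations, anions or water. In the pancreas the junctions close the acinar lumen and the ducts off from the tissue, and in the stomach they hold back acid, with claudin 18 as the claudin typical of gastric epithelium.

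Single-cell transcriptomes were measured in pancreas cells of 4 mice, 2 after 2 weeks and 2 after 4 weeks of caerulein, a peptide that injures the pancreas by overstimulating its acinar cells. All mice were of genotype Ptf1aCre-ERTM;ROSAYFP/+, backcrossed into CD-1, and were 10 weeks of age when injury began. Tamoxifen by gavage had first switched on EYFP through a Cre driven from the acinar gene Ptf1a, so both groups share the Cre, the tamoxifen and the caerulein injections, and uninjured pancreas was not analysed here. EYFP-positive cells were sorted, and 3' libraries were counted as UMIs, single molecules tagged before amplification. The label follows the cells in which the Ptf1a-driven Cre was active when tamoxifen was given, and their descendants.

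Of 21140 cells, 13362 had a type name deposited by the authors, of which 2984 and 3590 came from the mice of 2 weeks and 2814 and 3974 from those of 4 weeks. The 8 types are Acinar, Acinar.Prolif (dividing acinar cells), MucinDuctal (cells with the stomach mucin Muc6 and trefoil factor Tff2), Acinar/MucinDuctal, Ductal-like, Tuft (chemosensory cells), EEC (enteroendocrine cells) and Tuft/EEC.Progenitor. Median UMIs per typed cell were between 13464 and 20807 by mouse. Checked markers fitted the names for 5 of 6 acinar, 4 of 4 proliferation, 5 of 7 MucinDuctal, 4 of 6 ductal, 6 of 6 tuft and 7 of 7 EEC genes, each highest in the type so named. Muc5ac, a pit cell mucin on the MucinDuctal list, reached at most a mean of 0.942 CPM (counts per 1000000 UMIs), in Acinar/MucinDuctal cells. Levels below are CPM of all UMIs of a type in a mouse, always with mouse 1 before mouse 2 of each time point. The 2 samples of a time point are separate mice, and p-values measure the spread between them. Barcodes shared by more than 1 mouse numbered 67 of 21068, 23 of them among typed cells.

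Free RNA can put UMIs into cells that do not express a gene. As a background, cells that had no type name, no EYFP UMI and at least 3 UMIs of a list of 10 leukocyte genes were used (436, 462, 558 and 386 cells, median 5278, 4861.5, 4167.5 and 3367.5 UMIs), called leukocyte-marker cells here. They were shallower than Acinar cells (median 26482, 24008, 27905.5 and 32664.5 UMIs), so a level near theirs does not show that it is free RNA. Between genes, 3' UMI levels are not ranked, since capture differs from gene to gene.

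The start regions of the genes are shown first for Cldn18 and Cldn10, the claudins whose differences between time points are described at most length, and for Cldn4, which divided author clusters. RefSeq (GRCm38.p6, the mm10 build) lists promoters for 9 of the 9 claudins, 14 in all. Cldn18 lies on chr9:99690796-99717267 and Cldn10 on chr14:118787871-118874525. Each of these genes has 2 starts with different first exons, 7.20 kb apart in Cldn18 and 67.1 kb apart in Cldn10. For Cldn18, one first exon is known from lung and the other from stomach. Counts per gene from 3' libraries do not tell which start was used. Shown are the 250 bases upstream of each start, 5′ to 3′ on the gene's strand, with capitals for matches on either strand to 3 short motifs; no match overlapped another. For the factor AP-1 the letters searched were TGANTCA. The motif known for binding by factors of the GATA family was searched for in the form AGATAA. The box of that name near many starts was looked for as the letters TATAAA.
Cldn18, upstream start, chr9:99717268-99717517, minus strand: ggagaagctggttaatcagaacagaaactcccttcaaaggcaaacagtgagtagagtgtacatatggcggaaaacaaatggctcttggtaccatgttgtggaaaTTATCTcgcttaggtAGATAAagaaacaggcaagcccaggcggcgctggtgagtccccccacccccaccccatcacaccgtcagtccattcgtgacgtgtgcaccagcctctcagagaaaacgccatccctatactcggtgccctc
Cldn18, downstream start, chr9:99710064-99710313, minus strand: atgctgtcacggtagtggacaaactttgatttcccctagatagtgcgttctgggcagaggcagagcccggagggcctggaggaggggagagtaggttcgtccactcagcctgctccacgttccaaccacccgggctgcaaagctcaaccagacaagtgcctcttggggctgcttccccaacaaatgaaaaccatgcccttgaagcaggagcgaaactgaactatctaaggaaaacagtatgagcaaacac
Cldn10, upstream start, chr14:118787621-118787870, plus strand: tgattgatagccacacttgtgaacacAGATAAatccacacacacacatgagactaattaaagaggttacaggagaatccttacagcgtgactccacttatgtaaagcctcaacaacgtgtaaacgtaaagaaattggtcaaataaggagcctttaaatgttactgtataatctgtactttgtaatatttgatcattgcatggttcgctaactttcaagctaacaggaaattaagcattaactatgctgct
Cldn10, downstream start, chr14:118854700-118854949, plus strand: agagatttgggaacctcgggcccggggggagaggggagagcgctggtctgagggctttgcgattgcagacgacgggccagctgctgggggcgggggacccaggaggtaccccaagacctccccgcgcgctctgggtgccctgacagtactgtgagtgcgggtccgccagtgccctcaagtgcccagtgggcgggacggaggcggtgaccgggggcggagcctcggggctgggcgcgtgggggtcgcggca
Cldn4, chr5:134946935-134947184, minus strand: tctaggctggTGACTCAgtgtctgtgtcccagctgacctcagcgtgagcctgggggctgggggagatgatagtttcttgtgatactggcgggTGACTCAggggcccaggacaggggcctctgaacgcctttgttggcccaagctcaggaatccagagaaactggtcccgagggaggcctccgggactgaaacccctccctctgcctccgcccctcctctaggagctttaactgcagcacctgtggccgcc

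The upstream start of Cldn18 held 2 matches to the GATA letters and its downstream start none of the 3 motifs. The upstream start of Cldn10 held 1 match to the GATA letters. Cldn4 held 2 matches to the AP-1 letters, and Cldn2 had 1 TATA match. The remaining of the 14 claudin promoters held none of the 3 motifs. Whether claudins differ in this from all promoters was not tested. Of 32851 RefSeq promoters cut to the same 250 bases, 6.75% held the AP-1, 9.99% the GATA and 12.4% the TATA letters. A match is only a run of letters, and where there is none the factor may still bind. Cldn3 and Cldn4 are neighbours on chromosome 5 with 39.3 kb between them.

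Several deposited types differed in their mix of claudins. Acinar and Acinar.Prolif cells were not set apart, since their ranges over mice met for every claudin of the family. MucinDuctal cells were high in Cldn2, Ductal-like cells in Cldn2, Cldn3, Cldn7 and Cldn10, Tuft cells in Cldn7, Cldn3 and Cldn18, and EEC cells in Cldn6 and Cldn4. Acinar and Acinar.Prolif cells were the lowest types for Cldn7 and Cldn12. Because these counts were also what defined the types, no test between them is given, only whether the ranges over mice meet.

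**Figure D1:**
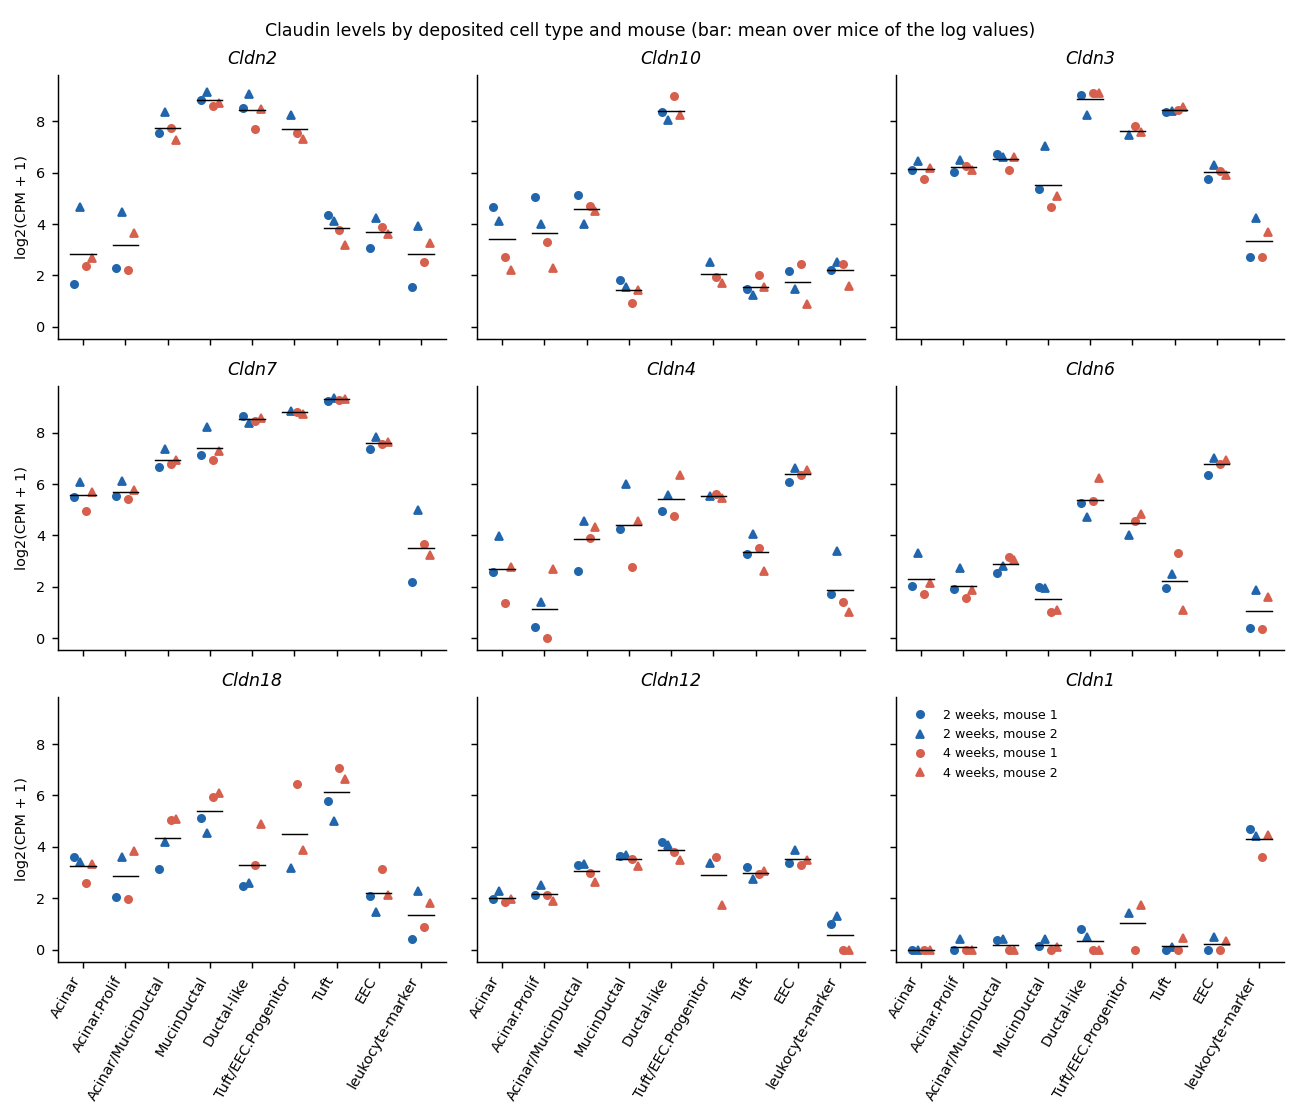
Level of each of the 9 claudins (y axis, log2 of CPM + 1) in the 8 deposited cell types and in leukocyte-marker cells (x axis); each point is a mouse, coloured by time point, and bars are means of the log values. Cldn2 points are high in MucinDuctal and Ductal-like cells, Cldn10 points in Ductal-like cells, Cldn7 points in Tuft cells and Cldn6 points in EEC cells, and Cldn1 points sit near 0 in all types and higher in leukocyte-marker cells.

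Of the pore-forming members, Cldn2 makes a channel for small cations and water and is typical of leaky epithelia. In MucinDuctal cells it stood at 458 and 562 CPM after 2 weeks and 384 and 423 CPM after 4 weeks. In Ductal-like cells it stood at 361 and 537 CPM after 2 weeks and 207 and 356 CPM after 4 weeks. The ranges of these types overlapped, and 2-week mouse 2 was the highest in both. Acinar/MucinDuctal cells had intermediate levels, 184 and 324 CPM after 2 weeks and 211 and 154 CPM after 4 weeks. Tuft/EEC.Progenitor cells of the 3 mice with at least 20 such cells had 305 CPM at 2 weeks and 187 and 156 CPM at 4 weeks. In Acinar cells Cldn2 was 2.18 and 24.1 CPM after 2 weeks and 4.17 and 5.47 CPM after 4 weeks, against 1.96, 14.0, 4.80 and 8.56 CPM in leukocyte-marker cells of the same mice. These values overlap, and 2-week mouse 2 is the highest in both. At a fixed depth of 1500 UMIs per cell, 45.2, 54.3, 42.3 and 42.6% of MucinDuctal cells in the 4 mice held a Cldn2 UMI. The share was 0.442, 3.91, 0.976 and 1.34% in Acinar cells and 0.369, 1.42, 0.862 and 1.63% in leukocyte-marker cells, at or near each other in all mice but 2-week mouse 2, where the Acinar share was well above. At full depth the shares were 92.7, 98.0, 89.4 and 90.7% of MucinDuctal cells and 6.09, 34.6, 11.7 and 14.8% of Acinar cells.

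Cldn10 encodes channel claudins whose splice forms select anions or cations. It was high in Ductal-like cells, with 331 and 267 CPM after 2 weeks and 511 and 299 CPM after 4 weeks, a mean of 352 ± 109 CPM (SD, n = 4). No mouse of any other type reached the lowest of these values. Acinar/MucinDuctal cells came next with 33.7 and 15.0 CPM after 2 weeks and 25.3 and 21.5 CPM after 4 weeks. Within that type, the authors' cluster 3 had 49.2, 22.3, 43.7 and 30.4 CPM and cluster 4 had 15.4, 8.24, 9.91 and 8.75 CPM. Cluster 3 was the higher in all 4 mice, and its leading genes over the rest of the type include Ppy, Reg3a and Try10. In MucinDuctal cells Cldn10 was 2.55, 1.97, 0.891 and 1.71 CPM, not above the 3.59, 4.78, 4.52 and 2.02 CPM of leukocyte-marker cells. Ductal-like cells are few, 38, 56, 23 and 22 by mouse.

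Cldn12 lacks the C-terminal motif by which most claudins bind scaffold proteins and has been linked to calcium transport. It was low in every type, from a mean of 3.10 ± 0.561 CPM (SD, n = 4) in Acinar cells to 14.2 ± 3.21 CPM (SD, n = 4) in Ductal-like cells. MucinDuctal cells had 11.6, 11.8, 10.6 and 8.45 CPM and Acinar cells 2.89, 3.92, 2.64 and 2.94 CPM, with no overlap. Leukocyte-marker cells had 0.978, 1.49, 0 and 0 CPM.

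Among the sealing members, Cldn3 is a barrier claudin found in many glands. Ductal-like cells had 516 and 302 CPM after 2 weeks and 552 and 548 CPM after 4 weeks, and Tuft cells 324 and 336 CPM after 2 weeks and 349 and 380.2 CPM after 4 weeks. The other types lay well below both, at means from 56.6 CPM in MucinDuctal to 197 CPM in Tuft/EEC.Progenitor cells. In Acinar cells Cldn3 was 67.7 and 87.3 CPM after 2 weeks and 53.2 and 71.9 CPM after 4 weeks. At 1500 UMIs per cell 8.74, 11.8, 7.53 and 9.47% of Acinar cells held it, against 1.19, 1.01, 0.398 and 1.34% of leukocyte-marker cells, so every Acinar value lay above the background. For Cldn7 the shares were 6.16, 9.26, 4.31 and 6.71% in Acinar and 0.810, 1.82, 1.01 and 1.19% in leukocyte-marker cells, again with every Acinar value above.

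Cldn7 is widespread in epithelia, where it is found at lateral membranes as well as at junctions. Tuft cells had 609 and 653 CPM after 2 weeks and 616 and 639.6 CPM after 4 weeks, a mean of 629 ± 20.3 CPM (SD, n = 4) and the smallest SD relative to the mean among the 8 types and 9 claudins with a mean over 100 CPM. Ductal-like cells had 402, 330.3, 354 and 381 CPM, EEC cells 164, 226, 189 and 199 CPM and MucinDuctal cells 138, 300.3, 123 and 153 CPM. Acinar cells, with 44.7, 67.4, 29.8 and 50.4 CPM, were lowest together with Acinar.Prolif cells, whose range they overlapped. The order Tuft, Tuft/EEC.Progenitor, Ductal-like, EEC held without overlap between neighbours, while EEC and MucinDuctal cells overlapped.

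Cldn4 strengthens barriers, and together with Cldn3 is known as a receptor for a clostridial toxin. EEC cells had the highest level, 65.9 and 96.5 CPM after 2 weeks and 81.0 and 91.8 CPM after 4 weeks, which overlapped with Ductal-like cells at 29.6, 47.1, 26.2 and 81.5 CPM. MucinDuctal cells varied widely, 18.2 and 63.4 CPM after 2 weeks and 5.90 and 22.5 CPM after 4 weeks. Cldn4 was held by 1 of the type's 2 author clusters, whose share of the cells also differed between mice. Cluster 1 had 68.3, 77.9, 26.2 and 49.8 CPM, and cluster 2 had 0.471, 1.00, 1.49 and 2.31 CPM, against 2.28, 9.56, 1.69 and 1.01 CPM in leukocyte-marker cells, which overlap. The 9.56 CPM of 2-week mouse 2 rests on 32 UMIs in 5 of 462 cells. Cldn4 is itself the leading gene of cluster 1 over cluster 2, followed by Serpinb6b, so this difference is a description of the cluster. Cluster 2 is led by Cblif (gastric intrinsic factor), A4gnt and Pgc (pepsinogen C). Cluster 1 made up 30.5, 82.0, 23.7 and 43.6% of MucinDuctal cells in the 4 mice. Cldn3 and Cldn7 were also higher in cluster 1 in every mouse. There Cldn3 was 109.9, 145, 74.0 and 62.7 CPM against 15.1, 59.4, 14.0 and 10.6 CPM in cluster 2, and Cldn7 was 241, 327, 204 and 231 CPM against 102, 184, 106 and 96.5 CPM. Cldn2 did not separate the clusters, with 567, 558, 681 and 504 CPM in cluster 1 and 420.1, 577, 320.0 and 364 CPM in cluster 2. In Acinar cells Cldn4 was likewise held by 1 cluster, cluster 6, with 12.7, 53.9, 7.69 and 12.7 CPM against 0.298, 7.98, 0.404 and 1.04 CPM in cluster 0. Cluster 6 is led by Isg15, Nupr1 and Gdf15, genes of the interferon and stress responses.

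Cldn1 is the main barrier claudin of skin and is found in many ducts. In typed cells it was all but absent, with 35 UMIs in 29 of 13362 cells. Acinar cells had 0 Cldn1 UMIs in every mouse, which allows up to 0.0599, 0.173, 0.115 and 0.0841 CPM (3 counts of the mouse's total). Leukocyte-marker cells had 25.1, 20.6, 11.3 and 21.2 CPM, above every type with at least 20 cells in every mouse. Over all 7778 cells with no type, 197 cells held 447 Cldn1 UMIs. The share with Cldn1 was 6.25% of the 944 cells with at least 3 UMIs of 5 fibroblast genes, 4.46% of 202 such cells for mesothelial, 4.37% of 183 for endothelial, 4.17% of 2016 for leukocyte and 3.96% of 2222 for macrophage genes. It was 2.90% of 3350 cells for ductal and 2.52% of 7462 for acinar genes, and a cell may be in more than 1 of these sets. The acinar set holds 7462 of the 7778 cells with no type, so it does not mark a cell type here. The depth of the cells in these sets was not matched, so the shares do not compare Cldn1 between cell types.

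Cldn6 is a claudin of embryonic epithelium and is low in most adult tissues. EEC cells had 80.4 and 129 CPM after 2 weeks and 108 and 120.1 CPM after 4 weeks, above every mouse of every other type. Ductal-like cells followed with 37.3, 25.0, 39.3 and 75.4 CPM. MucinDuctal cells had 3.01, 2.83, 1.06 and 1.16 CPM and leukocyte-marker cells 0.326, 2.69, 0.282 and 2.02 CPM, which overlap. Cldn9, which lies 137 bases from Cldn6 on chromosome 17 and was not among the 9, reached 11.6, 4.34, 10.8 and 10.4 CPM in EEC cells. Summed islet hormone genes (Ins1, Ins2, Gcg, Iapp) in EEC cells were 217, 9219, 1284 and 786 CPM, far higher in 2-week mouse 2, which had the highest Cldn6, Cldn4 and Cldn3 of the EEC sums, and their part in the result was not tested.

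The authors' subtypes of tuft and enteroendocrine cells divided these claudins further. Neurog3-positive EEC progenitors held most Cldn6, 198 and 179 CPM after 2 weeks and 192 and 216 CPM after 4 weeks. Hormone subtypes had less, down to 25.0, 37.5, 42.4 and 32.0 CPM in ECL (Tac1+) cells, and no hormone subtype reached the progenitors in any mouse. Cldn4 was highest in ECL (Tac1+) cells, with 177 and 207 CPM after 2 weeks and 154 and 183 CPM after 4 weeks, against 60.2, 67.4, 89.3 and 63.9 CPM in the progenitors. Epsilon (Ghrl+) cells, at 60.3, 100.3, 67.5 and 104 CPM, overlapped the progenitors. Mean Cldn4 was 42.0 ± 16.3 CPM (SD, n = 4) in Delta (Sst+) and 48.0 ± 7.34 CPM (SD, n = 4) in Ppy+ cells, below the progenitor mean of 70.2 ± 13.1 CPM (SD, n = 4). Across all EEC cells at 1500 UMIs, cells with both Cldn4 and Cldn6 were 0.644, 1.77, 1.49 and 1.21%, against 0.943, 2.07, 1.54 and 1.77% for the product of the separate shares, with the joint share the lower in each of the 4 mice. EEC cells pool subtypes that differ in both genes, so these shares do not show what holds inside a subtype.

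Among tuft subtypes, 3 claudins were highest in Tuft-3 cells. Tuft-2 cells had 43.7, 22.3, 89.2 and 73.4 CPM of Cldn18 and Tuft-3 cells 87.2, 63.6, 197 and 131 CPM. Cldn3 was 268, 309.9, 244 and 258 CPM in Tuft-2 and 407, 494, 451 and 514 CPM in Tuft-3 cells. Cldn7 was 584, 602, 536 and 542 CPM in Tuft-2 and 719, 843, 755 and 709 CPM in Tuft-3 cells. Tuft-3 was the higher in all 4 mice for each gene. Tuft-1 cells numbered at least 20 in 1 mouse per time point, 2-week mouse 2 and 4-week mouse 2. They had 6.91 and 25.6 CPM of Cldn18 there. Their Cldn4, 26.3 and 7.68 CPM, was above that of Tuft-3 cells in the same mice (15.6 and 4.89 CPM). The 4-week mouse had 26 Tuft-1 cells with 390480 UMIs in all, so its Cldn4 value there rests on few UMIs. In Tuft cells at 1500 UMIs, Cldn3 and Cldn7 were found together in 23.8, 23.8, 24.2 and 25.5% of cells, against 23.1, 22.8, 22.9 and 24.2% for the product of their shares, with the joint share the higher in each of the 4 mice. Tuft cells pool subtypes that differ in both genes, so these shares do not show pairing inside a subtype. For other pairs, the order varied over mice for Cldn2 with Cldn18 or Cldn7 in MucinDuctal cells. It also varied for Cldn3 with Cldn10 in Ductal-like and Cldn2 with Cldn3 in Acinar/MucinDuctal cells. The joint share was higher in every mouse for Cldn7 with Cldn18 in Tuft cells and lower for Cldn2 with Cldn10 in Ductal-like cells.

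**Figure D2:**
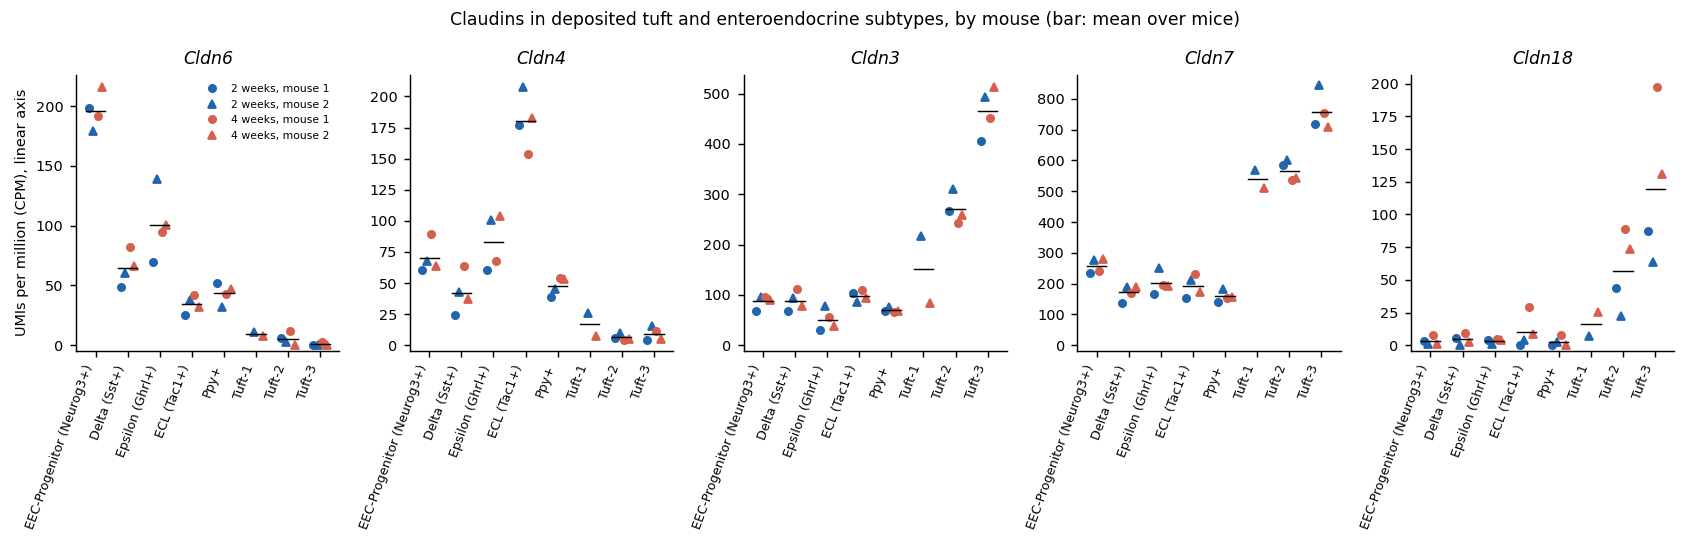
Level (y axis, CPM, linear) of Cldn6, Cldn4, Cldn3, Cldn7 and Cldn18 in 5 enteroendocrine and 3 tuft subtypes (x axis); each point is a mouse with at least 20 cells, and bars are means. Cldn6 points are highest in EEC progenitors, Cldn4 points in ECL (Tac1+) cells, and Cldn3, Cldn7 and Cldn18 points in Tuft-3 cells.

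The stomach-type member is Cldn18. Tuft cells had 54.4 and 30.9 CPM after 2 weeks and 134 and 98.4 CPM after 4 weeks. MucinDuctal cells had 33.5 and 22.2 CPM after 2 weeks and 59.9 and 66.6 CPM after 4 weeks, and Acinar/MucinDuctal cells 7.71 and 17.3 CPM after 2 weeks and 31.7 and 32.5 CPM after 4 weeks. In each of these 3 types both 4-week mice lay above both 2-week mice. In Acinar cells Cldn18 was 11.3 and 9.62 CPM after 2 weeks and 5.09 and 9.06 CPM after 4 weeks, with both 4-week mice below both 2-week mice. EEC cells had 3.21, 1.78, 7.89 and 3.36 CPM and leukocyte-marker cells 0.326, 3.88, 0.847 and 2.52 CPM. The 3.88 CPM of 2-week mouse 2 rests on 13 UMIs in 2 of 462 cells. At 1500 UMIs per cell the Tuft shares were 7.89 and 4.18% after 2 weeks and 16.8 and 12.2% after 4 weeks, and the MucinDuctal shares 4.51 and 3.03% after 2 weeks and 7.84 and 8.15% after 4 weeks. The same shares were 0.0539, 0.0983, 0.0838 and 0.240% in leukocyte-marker cells, so all values of both types lie above background at equal depth. At full depth, with median 19652, 20481, 14809 and 15805.5 UMIs, 51.8, 30.1, 61.3 and 55.3% of Tuft cells held a Cldn18 UMI. For Acinar/MucinDuctal cells the equal-depth shares overlapped between time points, at 1.25 and 2.90% after 2 weeks and 2.46 and 4.77% after 4 weeks.

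Cldn18 marked clusters within types as well. MucinDuctal cluster 1 had 71.4, 24.2, 137 and 94.7 CPM and cluster 2 20.1, 13.6, 43.1 and 45.9 CPM, with cluster 1 higher in every mouse. Acinar cluster 6 had 23.7, 24.7, 15.1 and 16.3 CPM, cluster 8 13.5, 8.63, 5.09 and 9.73 CPM and cluster 0 2.46, 4.05, 2.98 and 3.34 CPM. Cluster 6 is the acinar cluster that also held Cldn4, and it had the most Cldn3 (108, 152, 100.5 and 112 CPM) and Cldn7 (71.1, 117, 67.8 and 83.9 CPM) of the acinar clusters in every mouse.

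Next, the levels were set against Acinar cells within each mouse. Summed acinar enzymes filled 496081, 483712, 568322 and 560411 CPM of the Acinar sums. The median log2 ratio to Acinar cells over all features with at least 10 CPM in either type was 1.61 in MucinDuctal cells, and 0.56 with the enzymes left out of the library size. For Acinar/MucinDuctal cells it was 1.20 and 0.52. Against these medians, the log2 ratio of MucinDuctal to Acinar cells was 6.26 ± 1.31 for Cldn2 (mean ± SD, n = 4 mice), 2.30 ± 1.10 for Cldn18, 1.95 ± 0.11 for Cldn4, 1.86 ± 0.28 for Cldn7 and 1.77 ± 0.26 for Cldn12. These 5 were above 0 in all 4 mice. Of them, Cldn4, Cldn7 and Cldn12 lay within 0.5 of the median of all features, and Cldn2 lay further above it. The Cldn18 mean was also above that median, but over mice its ratio ranged from 1.20, which is below the median, to 3.55. No ratio is given for Cldn1, which had 0 UMIs in Acinar cells. Cldn10 had -2.50 ± 0.98 and Cldn6 -1.08 ± 0.74, both below 0 in all 4 mice. The size of the Cldn2 ratio rests on Acinar levels near those of leukocyte-marker cells in 3 of 4 mice, that of the Cldn10 ratio on MucinDuctal levels not above them, and that of the Cldn6 ratio on MucinDuctal levels that overlap them. The size of the Cldn4 ratio rests on Acinar levels that overlap them, and on MucinDuctal cluster 1, since cluster 2 had 0.471 to 2.31 CPM, so none of these sizes is exact. Cldn3 had -0.61 ± 0.80, above 0 only in 2-week mouse 2. The directions of these 8 held with the enzymes left out. In Acinar/MucinDuctal cells Cldn2 had 5.15 ± 1.14 and Cldn7 1.41 ± 0.33, while Cldn3, at 0.39 ± 0.21, turned to -0.29 with the enzymes left out.

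Other genes of the tight junction, a list of 27 scaffold, occludin-family and polarity genes, were looked at for comparison. Of the 21 with at least 10 CPM in either type, 20 had a MucinDuctal to Acinar log2 ratio above 1 and none below -1, with a median of 2.29, against 80.9% of all features above 1 and the median of 1.61. The highest were the angiomotin gene Amot at 3.98 ± 0.50, the scaffold gene Tjp3 at 3.52 ± 0.41 and cingulin, Cgn, at 2.97 ± 0.44. Among all 27 the lowest were Ybx3 at 0.26 ± 0.38, Jam2 at 0.92 ± 1.09 on 12 UMIs in both types together, and Amotl2 at 0.94 ± 0.58. Jam2 and Amotl2 were under 10 CPM in both types and are not among the 21. Of 6 adhesion genes that bind or neighbour claudins, Epcam, which stabilises claudin 7, had 3.41 ± 0.45.

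The samples are grouped by weeks of caerulein, and 4 weeks were compared with 2 weeks within each type. With edgeR (quasi-likelihood test, Benjamini-Hochberg over all genes of a type) 0 claudins passed an adjusted p of 0.05 in any of the 7 types tested. This compares with 0.00995% of all genes in Acinar.Prolif (1 of 10046) and 0.0% in each of the other 6. Of the 9 claudins, 8 passed the filter on low counts in Acinar, Acinar/MucinDuctal, MucinDuctal and EEC cells and 7 in the other 3 types, Cldn1 in none. At an unadjusted p under 0.05 there were 1 of 8 in Acinar (all genes 2.79%), 0 of 7 in Acinar.Prolif (2.45%), 1 of 8 in Acinar/MucinDuctal (3.42%), 2 of 8 in MucinDuctal (5.39%), 1 of 7 in Ductal-like (5.27%), 2 of 7 in Tuft (6.74%) and 0 of 8 in EEC cells (4.03%). DESeq2 called 1 claudin in each of Acinar (Cldn10; all genes 0.122%), MucinDuctal (Cldn18; 0.297%) and Tuft cells (Cldn18; 0.283%). It called 0 claudins in Acinar.Prolif (all genes 0.0199%), Acinar/MucinDuctal (0.198%), EEC (0.118%) and Ductal-like cells (0.0%).

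**Figure D3:**
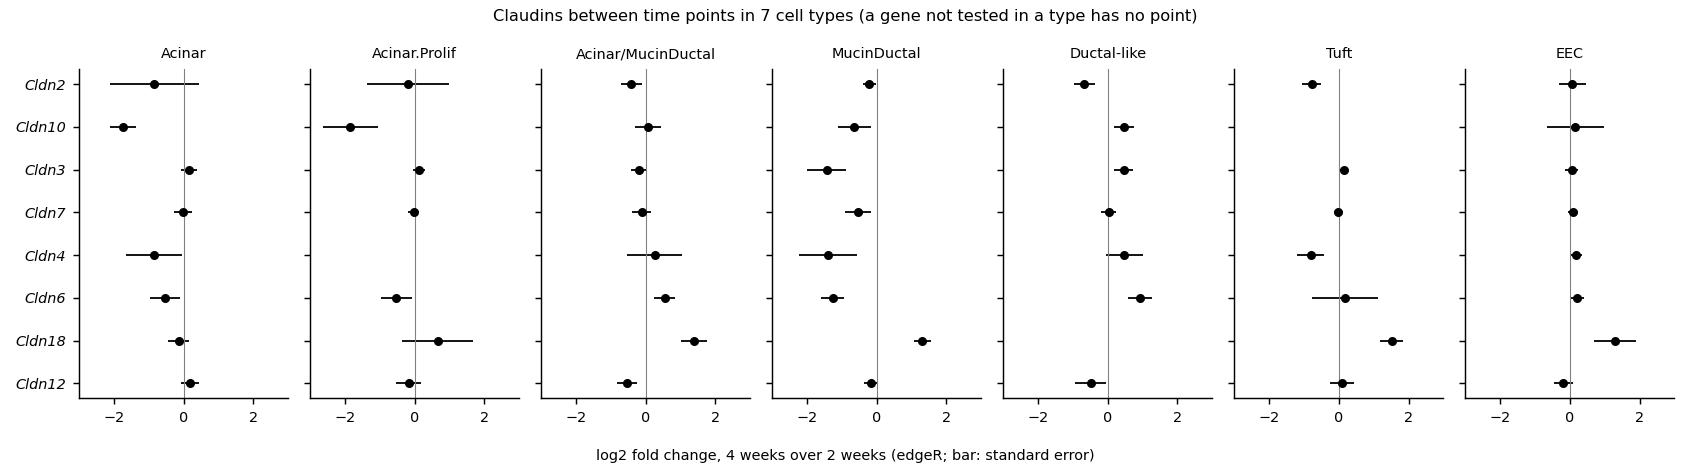
Fold change of each tested claudin between time points (x axis, log2 of 4 weeks over 2 weeks, edgeR, bars are standard errors) in 7 cell types (panels). Cldn18 points lie above 1 in Acinar/MucinDuctal, MucinDuctal, Tuft and EEC cells, and Cldn10 points lie below -1 in Acinar and Acinar.Prolif cells. None passed the adjusted threshold, and the Cldn18 point of EEC cells rests on 13, 9, 30 and 12 UMIs.

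For Cldn18 the log2 difference between time points was 1.51 (SE 0.319, unadjusted p = 0.00571, edgeR adjusted p = 0.425) in Tuft cells. In MucinDuctal cells it was 1.31 (SE 0.248, unadjusted p = 0.00383, edgeR adjusted p = 0.824). In Acinar/MucinDuctal cells it was 1.37 (SE 0.375, unadjusted p = 0.0116, edgeR adjusted p = 0.999). All 3 failed the correction, though both 4-week mice were above both 2-week mice. Over the 7 alternative analyses the adjusted p ranged from 1.64e-14 to 0.824 in Tuft cells, where 3 alternatives called it, DESeq2 among them (adjusted p = 0.00147). It ranged from 0.0122 to 1.00 in MucinDuctal cells (2 alternatives called it, DESeq2 at 0.0122) and from 8.28e-06 to 1.00 in Acinar/MucinDuctal cells (2 called it, DESeq2 at 0.626 did not). The smallest values in Tuft and Acinar/MucinDuctal cells came from edgeR with no filter on low counts. That fit called 266 genes in Tuft and 128 in Acinar/MucinDuctal cells, against 0 in each with the filter. Why it called so many was not tested. Leaving out each mouse in turn gave log2 differences of 1.08 to 1.90 in Tuft, 1.01 to 1.67 in MucinDuctal and 0.96 to 2.17 in Acinar/MucinDuctal cells. Among these fits, the calls came when 2-week mouse 1 was left out (Tuft and MucinDuctal) or 2-week mouse 2 (Acinar/MucinDuctal). The fits with these calls have 1 mouse at 2 weeks and called many more genes than with all 4 mice.

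The same direction was seen inside subgroups. In Tuft-2 cells Cldn18 was 43.7 and 22.3 CPM after 2 weeks and 89.2 and 73.4 CPM after 4 weeks, and in Tuft-3 cells 87.2 and 63.6 CPM after 2 weeks and 197 and 131 CPM after 4 weeks. In MucinDuctal cluster 1 it was 71.4 and 24.2 CPM after 2 weeks and 137 and 94.7 CPM after 4 weeks, and in cluster 2 20.1 and 13.6 CPM after 2 weeks and 43.1 and 45.9 CPM after 4 weeks. In Acinar/MucinDuctal cluster 3 it was 3.66 and 11.9 CPM after 2 weeks and 17.5 and 28.8 CPM after 4 weeks, and in cluster 4 11.6 and 22.5 CPM after 2 weeks and 42.7 and 37.7 CPM after 4 weeks. Both 4-week mice were above both 2-week mice in all 6. Of all genes with a mean of at least 1 CPM, 15.7% did the same in Tuft-2, 18.6% in Tuft-3, 14.0% in MucinDuctal cluster 1 and 10.5% in cluster 2. In Acinar/MucinDuctal clusters 3 and 4 it was 16.2% and 8.97%. Tuft-3 cells made up 47.3, 29.4, 62.4 and 56.9% of tuft subtype cells, also a larger share at 4 weeks. Cells with no deposited type and no leukocyte call had 2.26 and 2.57 CPM after 2 weeks and 13.6 and 14.3 CPM after 4 weeks as well, while the leukocyte-marker values overlapped between time points. In Tuft cells the summed stomach neck genes (Tff2, Muc6, Aqp5, Cd44, Gkn3) were 1265, 867, 1772 and 1329 CPM, higher in both 4-week mice, and 5 stomach pit genes were at 1.17, 4.11, 1.50 and 1.92 CPM. Other marker lists also separated the time points in Tuft cells. The 10 leukocyte genes were higher at 4 weeks (48.0, 59.2, 86.6 and 109.7 CPM), as were 7 MucinDuctal genes (604, 634, 975 and 864 CPM), and 6 macrophage genes were lower (102, 53.8, 14.7 and 12.3 CPM). In MucinDuctal cells the neck genes were 99035, 33458, 125693 and 93835 CPM, overlapping between time points and lowest in 2-week mouse 2, which also had the lowest Cldn18. The pit genes there went the other way from Cldn18, 80.9, 171, 35.0 and 76.4 CPM, lower in both 4-week mice. Lower without overlap in MucinDuctal cells were also 6 ductal genes (10481, 11035, 8475 and 7484 CPM) and 5 fibroblast genes (26.5, 19.8, 4.06 and 15.4 CPM). In Acinar/MucinDuctal cells the neck genes (40987, 16039, 62871 and 55155 CPM), the MucinDuctal genes (16865, 7503, 34061 and 33191 CPM), the macrophage genes (56.5, 67.0, 227 and 246 CPM) and the leukocyte genes (28.8, 24.4, 75.5 and 40.9 CPM) were higher at 4 weeks without overlap. The pit genes (19.7, 37.5, 8.44 and 17.4 CPM) and the ductal genes (5100.4, 4952, 4421 and 3453 CPM) were lower there. Also lower there without overlap were 10 immediate early genes of tissue dissociation (1880, 2892, 1853 and 1737 CPM). The neck and MucinDuctal lists share Muc6 and Tff2. The part of these in the result was not tested.

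**Figure D4:**
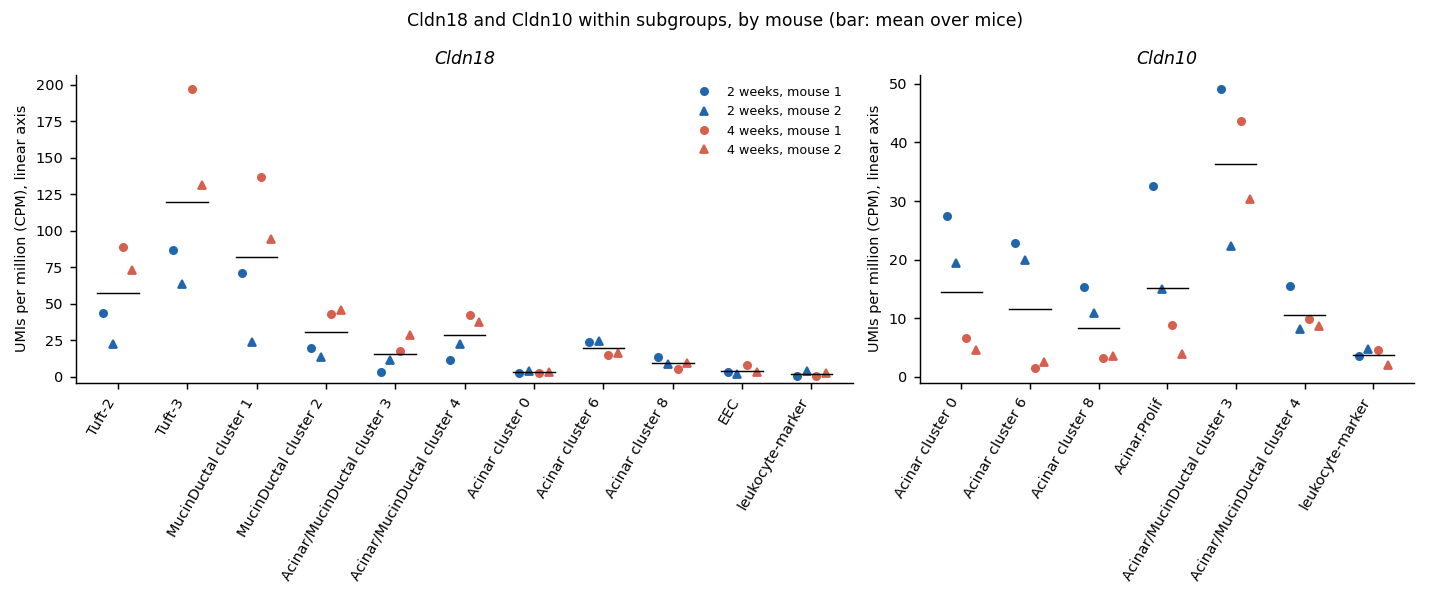
Cldn18 (left) and Cldn10 (right) within subgroups (x axis; deposited subtypes, authors' clusters, and leukocyte-marker cells), in CPM on a linear y axis; each point is a mouse, bars are means. Cldn18 points of the 4-week mice lie above those of the 2-week mice in the 6 tuft, MucinDuctal and Acinar/MucinDuctal subgroups, and Cldn10 points of the 4-week mice lie below in Acinar clusters 0, 6 and 8 and in Acinar.Prolif cells.

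Cldn10 differed in the other direction in acinar cells. Acinar cells had 24.6 and 16.5 CPM after 2 weeks and 5.55 and 3.67 CPM after 4 weeks, and Acinar.Prolif cells 32.6 and 15.1 CPM after 2 weeks and 8.92 and 3.91 CPM after 4 weeks. In both types the 2-week mice were above the 4-week mice. Cluster 0 had 27.5, 19.5, 6.67 and 4.54 CPM, cluster 6 22.8, 19.9, 1.44 and 2.56 CPM and cluster 8 15.4, 10.9, 3.24 and 3.65 CPM, apart in the same direction in each. Of all genes with a mean of at least 1 CPM, 49.7% were lower without overlap in cluster 0, 38.8% in cluster 6 and 32.5% in cluster 8. At 1500 UMIs per cell the Acinar shares were 3.39 and 2.17% after 2 weeks and 0.788 and 0.579% after 4 weeks. Leukocyte-marker cells had 0.740, 0.325, 0.745 and 0.473%, near the 4-week Acinar values. Those cells were shallower, so whether the 4-week Acinar values are free RNA cannot be told from these shares. The log2 difference was -1.74 (SE 0.384, unadjusted p = 0.00448, edgeR adjusted p = 0.998) in Acinar and -1.85 (SE 0.782, unadjusted p = 0.0994, edgeR adjusted p = 1.00) in Acinar.Prolif cells. In Acinar cells DESeq2 called it (adjusted p = 0.0329) and the range over 7 alternatives was 4.61e-09 to 0.997. The smallest of these came from edgeR with no filter on low counts, which called 286 genes in Acinar cells against 0 with the filter. Without 2-week mouse 2 edgeR also called Cldn10 in Acinar and in Acinar.Prolif cells. Those fits have 1 mouse at 2 weeks and called many more genes than with all 4 mice, so their p-values are not given here. Leaving out each mouse in turn gave -2.12 to -1.17 in Acinar and -2.59 to -0.84 in Acinar.Prolif cells, the latter nearest 0 without 2-week mouse 1. Ductal-like cells showed no such difference, 331 and 267 CPM after 2 weeks and 511 and 299 CPM after 4 weeks, nor did Acinar/MucinDuctal cells. Immediate early genes, which rise when tissue is dissociated, summed to 798, 1687, 371 and 454 CPM in Acinar cells. Macrophage genes summed to 19.4, 25.5, 11.6 and 9.87 CPM and 4 proliferation genes to 54.8, 14.2, 13.7 and 12.3 CPM. All of these were lower at 4 weeks, and their part was not tested.

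Acinar enzymes filled more of the Acinar sums in both 4-week mice, as given above. In these cells 62.6% of all genes tested had CPM that did not overlap between time points. Claudins with both 4-week mice below both 2-week mice numbered 2 of 8 in Acinar cells (Cldn10 and Cldn18), where 61.8% of all genes tested did the same. Summed leukocyte genes (33.2, 38.8, 25.7 and 25.8 CPM) and macrophage genes (19.4, 25.5, 11.6 and 9.87 CPM) were also lower in both 4-week mice there. So were pit genes (1.08, 5.36, 0.345 and 1.04 CPM) and 10 immediate early genes of tissue dissociation (798, 1687, 371 and 454 CPM). The 4 proliferation genes were lower as well (54.8, 14.2, 13.7 and 12.3 CPM), and the part of all these in the result was not tested. With edgeR's scaling, Cldn18 in Acinar cells had a log2 difference of -0.15 (SE 0.303, unadjusted p = 0.642, edgeR adjusted p = 0.998). Over all genes and both directions, 31.7% did not overlap in Acinar.Prolif and 32.4% in Acinar/MucinDuctal cells. The share was 39.7% for MucinDuctal, 34.8% for Ductal-like, 35.5% for Tuft and 32.5% for EEC cells. In Acinar.Prolif cells 0 of 7 claudins were higher at 4 weeks (all genes 4.39%), and 3 of 7 were lower (Cldn6, Cldn10, Cldn12) against 27.3%. The immediate early genes (610, 1332, 397 and 528 CPM) and leukocyte genes (61.6, 67.0, 58.6 and 55.1 CPM) were also lower there without overlap. So were the fibroblast genes (9.97, 58.0, 6.29 and 3.23 CPM), while acinar enzymes were higher (417794, 343179, 449519 and 418391 CPM). The part of these in the Acinar.Prolif differences was not tested. In MucinDuctal cells 5 of 8 claudins were lower (Cldn2, Cldn3, Cldn6, Cldn10, Cldn12) against 30.2%. Of these, Cldn10 was not above the levels of leukocyte-marker cells, and Cldn6 overlapped them. Cldn2 overlapped between time points in MucinDuctal cluster 1 (means 562 CPM after 2 and 593 CPM after 4 weeks). In cluster 2 it was lower at 4 weeks (means 498 and 342 CPM). Higher at 4 weeks without overlap were Cldn18 alone in MucinDuctal (all genes 9.54%) and EEC cells (8.85%). In EEC cells the neck genes were 1024, 1285, 1882 and 2123 CPM, also higher in both 4-week mice. This is 1 of several marker lists of these cells, and the part of none of them was tested. Claudins higher without overlap in Tuft cells were Cldn3 and Cldn18 (18.2%), in Acinar/MucinDuctal cells Cldn6 and Cldn18 (9.74%), and in Ductal-like cells Cldn3 and Cldn6 (16.0%). Cldn18 in Ductal-like cells, 4.56 and 5.00 CPM after 2 weeks and 8.73 and 28.5 CPM after 4 weeks, was also higher without overlap but did not pass the filter on low counts and is not in that count. Lower in the last 3 were Cldn2 in Tuft (17.3%), Cldn12 in Acinar/MucinDuctal (22.6%) and Cldn2 and Cldn12 in Ductal-like cells (18.7%).

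The remaining claudins gave smaller or less even differences. Cldn7 in Tuft cells had a log2 difference of -0.01 (SE 0.129, unadjusted p = 0.943, edgeR adjusted p = 1.00). In MucinDuctal cells Cldn3 had -1.43 (SE 0.564, unadjusted p = 0.0569, edgeR adjusted p = 0.824), and the mice had 39.9 and 129 CPM after 2 weeks and 24.7 and 32.7 CPM after 4 weeks. The difference was -0.38 without 2-week mouse 2 and -2.01 without 2-week mouse 1, each a fit with 1 mouse left at 2 weeks. Of 7 alternatives, 1 called Cldn3 there, the fit without 2-week mouse 1. In 2-week mouse 2, 82.0% of MucinDuctal cells were of cluster 1, the cluster with more Cldn3, Cldn4 and Cldn7. Inside each cluster Cldn3 was also lower in both 4-week mice. Means after 2 and 4 weeks were 128 and 68.3 CPM in cluster 1 and 37.2 and 12.3 CPM in cluster 2. Cldn6 in MucinDuctal cells had -1.27 (SE 0.327, unadjusted p = 0.0131, edgeR adjusted p = 0.824), at levels of 3.01, 2.83, 1.06 and 1.16 CPM that overlap those of leukocyte-marker cells. In Ductal-like cells Cldn6 had 0.92 (SE 0.336, unadjusted p = 0.0203, edgeR adjusted p = 0.900). In Ductal-like cells, where Cldn3, Cldn6, Cldn2 and Cldn12 lay apart by time point, the ductal genes were 20524, 16594, 23884 and 22368 CPM, higher in both 4-week mice. The MucinDuctal genes were 7531, 10186, 1884 and 5458 CPM and 6 tuft genes 54.7, 197, 6.55 and 32.6 CPM, both lower. The part of these in the Ductal-like differences was not tested. Without 2-week mouse 1, edgeR called Cldn2 in Acinar cells (log2 difference -1.66, among 85 of 12736 genes), but without 2-week mouse 2 that difference turned to 1.45. Without 2-week mouse 1 it also called Cldn2 (-0.96) and Cldn6 (1.18) in Ductal-like cells, among 230 of 7400 genes. Without 2-week mouse 2 it called Cldn6 in EEC cells (0.53, among 207 of 12211 genes), a difference that was -0.03 without 2-week mouse 1. Over the tight junction list 0 genes passed the adjusted edgeR threshold in any type. At an unadjusted p under 0.05 there were 1 of 23 in Acinar (all genes 2.79%) and 1 of 24 in MucinDuctal cells (5.39%). There were 3 of 23 in Tuft (6.74%) and 2 of 25 in EEC cells (4.03%). In Acinar.Prolif (2.45%), Acinar/MucinDuctal (3.42%) and Ductal-like cells (5.27%) there were 0. The median log2 difference of that list in Tuft cells was 0.03 and that of all features -0.01.

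The difference of the time effect between MucinDuctal and Acinar cells was tested in 1 model that keeps the mouse as a block. With edgeR, 0 of 8 claudins and 0.0% of 14098 genes passed. At an unadjusted p under 0.05 there were 2 claudins (all genes 3.05%), and DESeq2 called 0 claudins and 5 genes (0.0355%). Cldn18 had a log2 interaction of 1.45 (SE 0.268, unadjusted p = 0.000664, edgeR adjusted p = 0.850), 1.17 to 1.77 when each mouse was left out. Cldn3 had -1.41 (SE 0.506, unadjusted p = 0.0308, edgeR adjusted p = 1.00), -2.18 to -0.54 when each mouse was left out, nearest 0 without 2-week mouse 2 and farthest without 2-week mouse 1. Without 2-week mouse 1, Cldn2, Cldn3, Cldn7 and Cldn18 were called among 970 of 14617 genes, and without 2-week mouse 2, Cldn2 and Cldn18 among 92 of 14352. The Cldn2 interaction took opposite signs in these fits, 1.36 without 2-week mouse 1 and -1.51 without 2-week mouse 2, and was -0.03 with all 4 mice.

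Stomach-type was set against pancreas-type by the log2 ratio of Cldn18 UMIs to the summed UMIs of Cldn1, Cldn2, Cldn3, Cldn4, Cldn7, Cldn10 and Cldn12, which does not depend on the library size. The 7 are called pancreas-type because they have been described in pancreatic ducts or acini. Their sum was 147, 214, 96.9 and 140 CPM in Acinar cells and 669, 1069, 550 and 642 CPM in MucinDuctal cells. The ratio is therefore not a measure of pancreas identity. This ratio is a score over the members, given with no test. In Tuft cells it was -4.15 and -5.06 after 2 weeks and -2.90 and -3.40 after 4 weeks, in MucinDuctal cells -4.32 and -5.59 after 2 weeks and -3.20 and -3.27 after 4 weeks, and in Acinar/MucinDuctal cells -5.80 and -5.19 after 2 weeks and -3.76 and -3.69 after 4 weeks. In Ductal-like cells it was -8.39 and -8.17 after 2 weeks and -7.40 and -5.83 after 4 weeks, while the neck genes of the same cells were lower in both 4-week mice, 22356, 20501, 5867 and 14181 CPM. In these 4 types both 4-week mice were above both 2-week mice, by 1.45, 1.72, 1.77 and 1.66 on average. The Ductal-like values rest on 6, 12, 4 and 14 Cldn18 UMIs. In Acinar cells it was -3.70 and -4.47 after 2 weeks and -4.25 and -3.95 after 4 weeks, a difference of -0.01 with overlapping mice. Acinar.Prolif and EEC cells differed by 0.42 and 1.06 with overlap. The EEC values rest on 13, 9, 30 and 12 Cldn18 UMIs. Cldn18 made up 5.31 and 2.92% after 2 weeks and 11.8 and 8.62% after 4 weeks of the UMIs of these 8 claudins in Tuft cells. In MucinDuctal cells it made up 4.77 and 2.03% after 2 weeks and 9.82 and 9.40% after 4 weeks. In Acinar cells it made up 7.16 and 4.30% after 2 weeks and 4.99 and 6.06% after 4 weeks.

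**Figure D5:**
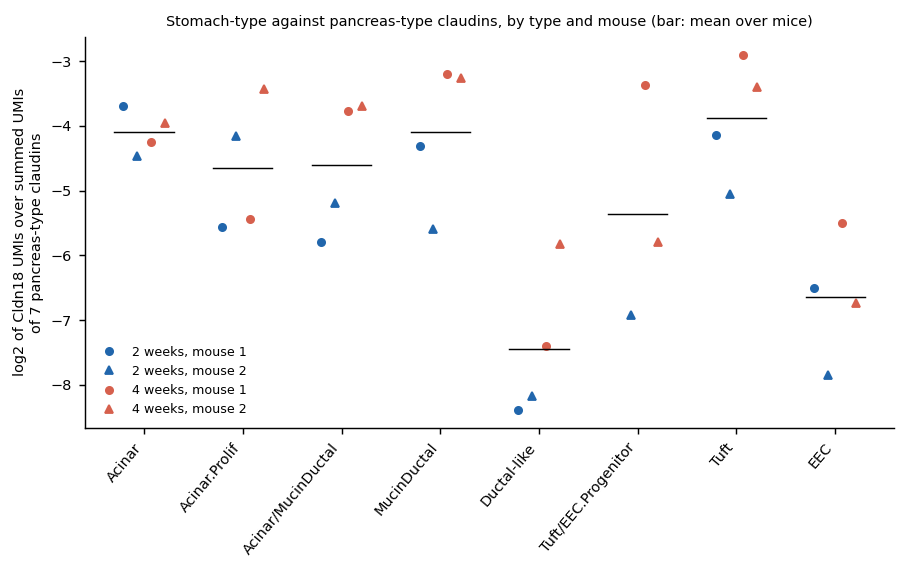
Log2 ratio of Cldn18 UMIs to the summed UMIs of 7 pancreas-type claudins (y axis) in 8 cell types (x axis); each point is a mouse with at least 20 cells of the type, bars are means. The 4-week points lie above the 2-week points in Acinar/MucinDuctal, MucinDuctal, Ductal-like and Tuft cells and overlap in Acinar, Acinar.Prolif and EEC cells.

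For claudins with a mean of at least 10 CPM other than Cldn10, the 3 genes with the most similar pattern over 31 sums of type and mouse are given by Pearson's r of log2(CPM + 1), among 8049 genes. The sums share mice, depth and the share of acinar enzymes, so r is a description. For Cldn2 they were Tmem45a (0.98), Gas6 (0.97) and Cfi (0.97). For Cldn7 they were Slco3a1 (0.98), Afdn (0.97) and Ppdpf (0.97), the gene Afdn encoding the junction protein afadin. For Cldn6 they were Mapk15 (0.95), Tmem184c (0.94) and Eva1b (0.93). For Cldn4 they were Basp1 (0.92), Hdac7 (0.92) and Klc3 (0.92). For Cldn18 the likeness was weaker, Anxa10 (0.82), Rab27b (0.82) and Cmtm8 (0.80), as it was for Cldn3, Mical1 (0.83), Rab11fip4 (0.82) and Mcc (0.81). Between claudins the highest r was 0.76, for Cldn4 with Cldn6, then 0.73 for Cldn3 with Cldn7.

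Of the 23 other claudin genes of the table, 11 had 0 UMIs in typed cells and 3 exceeded 10 CPM in at least 3 mice of a type. Cldn8 did so in Ductal-like cells, with 17.5, 21.3, 10.9 and 24.4 CPM, and was 11.4, 16.0, 9.41 and 12.3 CPM in MucinDuctal cells. Cldn11, a claudin of myelin and testis, did so in EEC cells with 13.3, 25.9, 13.2 and 18.8 CPM. Cldn9 did so in EEC cells, as given above.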

How the data were processed

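UMI counts per gene and cell were deposited by the authors as raw, unnormalized tables (32288 features), with cell types, clusters and subtypes in label files; Cell Ranger 4.0.0, Seurat 3.2.3 and mm10 are named in the submitters' processing notes. The counts of the EYFP-positive table equalled the merged table (summed difference 0). Doublets were neither called nor removed here. Deposited types, clusters and subtypes were used as given.

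Counts were summed per mouse and type with at least 20 cells; Tuft/EEC.Progenitor cells were not tested, since 1 mouse had 10. Time points were compared with edgeR 4.0.16 (TMM, filterByExpr, robust quasi-likelihood) under R 4.3.3, with DESeq2 1.42.0, no filter on low counts, at least 2 EYFP UMIs per cell and leaving out each mouse as alternatives. Ratios used a pseudocount of 0.5 UMIs and patterns log2(CPM + 1). Shares at 1500 UMIs are exact expectations over cells with at least that many; they and all shares cover counting error only. Leukocyte-marker cells at the minimum of 3 list UMIs numbered 51, 54, 73 and 55, and 92, 95, 103 and 93 lay just below. The fits were tested on simulated data. Python 3.11.15, numpy 2.4.6, pandas 2.3.3 and matplotlib 3.10.9 were used.

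The 9 claudins are always named. Also named were the 3 genes most alike in pattern (the result for Cldn10 is not reported here), other claudins above 10 CPM in 3 mice of a type, and the 3 highest and lowest tight junction genes in the MucinDuctal to Acinar ratio. Members and lists were chosen with earlier results of these data known. Genes that lead a cluster were named after their values were seen.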

Additional observations from a re-analysis of the deposited data

Results flagged for a closer look

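Cells with no deposited type, which entered no test between time points, held more of 7 of the 9 claudins, in CPM, than the leukocyte-marker cells in each of the 4 mice. Cldn1 was lower in them than in leukocyte-marker cells in every mouse, and Cldn18 was lower in 2-week mouse 2. The leukocyte-marker Cldn18 of that mouse rests on 13 UMIs in 2 of 462 cells. At 1500 UMIs per cell the Cldn18 order there was the opposite, 0.0983% in leukocyte-marker cells and 0.407% in cells with no type. Leukocyte-marker cells are not counted among the cells with no type here. They were taken out of the untyped cells for leukocyte UMIs and no EYFP UMI. The order between these 2 sets therefore follows in part from that choice and is only a description. The share of all genes with the same order was not computed. Mean levels of the cells with no type over the 4 mice were 92.8 CPM for Cldn2, 104 CPM for Cldn3, 101 CPM for Cldn7 and 54.3 CPM for Cldn10. Cldn4 had 18.8 CPM, Cldn6 14.2 CPM and Cldn12 5.97 CPM. Cldn10 stood at 82.7, 36.2, 57.1 and 41.4 CPM by mouse there, above Acinar cells and below Ductal-like cells of every mouse.

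Mean Cldn3 lay in opposite directions between time points in different types, though no Cldn3 difference passed edgeR's adjusted threshold with all 4 mice. It was higher at 4 weeks in Ductal-like cells (log2 ratio of means 0.43, edgeR adjusted p = 0.901) and in Tuft cells (0.15, adjusted p = 0.936), with both 4-week mice above both 2-week mice, as for 16.0 and 18.2% of all genes. Inside Tuft-2 cells the order was the opposite, with means of 289 CPM after 2 weeks and 251 CPM after 4 weeks and both 4-week mice below, and inside Tuft-3 cells, which have more Cldn3, the mice overlapped. Tuft-3 cells made up 47.3 and 29.4% of tuft subtype cells after 2 weeks and 62.4 and 56.9% after 4 weeks. Cldn3 was lower in MucinDuctal cells (-1.56, edgeR adjusted p = 0.824), with both 4-week mice below, as for 30.2% of all genes. Inside MucinDuctal clusters 1 and 2 both 4-week mice were also below. The edgeR difference in MucinDuctal cells was -0.38 without 2-week mouse 2 and -2.01 without 2-week mouse 1. The difference between these types was not tested.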

How the results depend on the processing

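Counts of calls over time depended on the method, and the cause was not tested. DESeq2 called 1 in Acinar, 1 in MucinDuctal and 1 in Tuft among the claudins, and 15 in Acinar, 2 in Acinar.Prolif, 23 in Acinar/MucinDuctal, 40 in MucinDuctal, 31 in Tuft, 14 in EEC and 5 in the interaction of all genes. With no filter on low counts edgeR called 1 in Acinar, 1 in Acinar/MucinDuctal, 1 in Tuft and 1 in the interaction among the claudins, and 286 in Acinar, 51 in Acinar.Prolif, 128 in Acinar/MucinDuctal, 6 in MucinDuctal, 81 in Ductal-like, 266 in Tuft, 74 in EEC and 19 in the interaction of all genes. With at least 2 EYFP UMIs per cell it called 2 in Acinar.Prolif and 2 in Ductal-like of all genes. Leaving out each mouse in turn gave 0 to 1 in Acinar, 0 to 1 in Acinar.Prolif, 0 to 1 in Acinar/MucinDuctal, 0 to 2 in MucinDuctal, 0 to 2 in Ductal-like, 0 to 1 in Tuft, 0 to 1 in EEC and 0 to 4 in the interaction for claudins, and 13 to 129 in Acinar, 5 to 143 in Acinar.Prolif, 0 to 122 in Acinar/MucinDuctal, 0 to 191 in MucinDuctal, 0 to 230 in Ductal-like, 5 to 273 in Tuft, 0 to 366 in EEC and 2 to 970 in the interaction for all genes. The largest of these counts came from leaving out a 2-week mouse, which leaves 1 mouse at that time point, assumed to vary like the others.

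The stomach-type over pancreas-type difference kept its sign in Acinar/MucinDuctal, MucinDuctal, Ductal-like, Tuft and EEC cells under all alternatives. Its EEC values rest on 13, 9, 30 and 12 Cldn18 UMIs, and the mice overlapped. It was -0.40 to 0.37 in Acinar, -0.58 to 1.43 in Acinar.Prolif, 1.46 to 2.08 in Acinar/MucinDuctal, 1.08 to 2.36 in MucinDuctal, 0.87 to 2.45 in Ductal-like, 1.00 to 1.90 in Tuft and 0.38 to 1.73 in EEC without each mouse, so Acinar and Acinar.Prolif cells took either sign. Averaged per cell at 1500 UMIs it was 1.31 in Acinar/MucinDuctal cells. Of 16 log2 ratios to Acinar cells, 7 stayed within 1 SD with acinar enzymes left out of the library size, 8 moved further and 1 turned, Cldn3 in Acinar/MucinDuctal cells (-0.29).

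No paired analysis was possible because the labels give no replicate numbers and the time points are different mice. There were 2 mice per time point and 22 to 56 Ductal-like cells per mouse, so a claudin that was not called is not shown to be unchanged. Acinar/MucinDuctal cells were shallow in 3 of 4 mice (median 3387, 19556, 2659 and 3555 UMIs).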
